A study of Mus musculus with 10 samples.

Results

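The genes described here are 38 genes of macroautophagy, the route by which a cell wraps part of its own contents in a membrane and sends it to the lysosome for breakdown. They were chosen by name, from the core machinery, the enzymes that couple LC3 to a lipid, the cargo receptors, a regulator and a lysosomal membrane gene. All 38 were found by symbol, 1 row each, among the 47729 genes of the deposited table. The libraries are from livers of female mice, 5 with a full body knockout of Etnppl (KO) and 5 wild type (WT). All were kept on chow for 8 weeks, followed by 10 weeks on a high-fat diet in which fat supplied 45% of the energy. The strain, the deleted stretch of Etnppl and the hour of harvest were not given in the sources used here. Nor do the labels say whether each numbered sample is its own animal, and the p-values below therefore cover only the variation among these libraries.

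Autophagy begins when the ULK kinase complex is activated and a flat membrane, the phagophore, grows from lipid brought to it. A lipid kinase complex marks that membrane with phosphatidylinositol 3-phosphate. Small proteins of the Atg8 family, LC3 and its relatives the GABARAPs, are trimmed by Atg4 proteases and then joined through a glycine to phosphatidylethanolamine in the membrane. Receptors that bind both cargo and an Atg8 protein bring the cargo in. Etnppl encodes ethanolamine-phosphate phospho-lyase, which breaks down phosphoethanolamine, a precursor of phosphatidylethanolamine. The comparison therefore sets the genes that use the lipidated form of LC3 beside the loss of an enzyme of ethanolamine lipid metabolism. RNA levels do not measure lipidation or autophagic flux.

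The 5 Atg8 family genes share the feature that the lipid is attached to. The ends of their coding sequences are from GENCODE M21 transcripts of the GRCm38 build. For each gene the transcript model of lowest number with a complete coding sequence was used, here and for the identities below. The annotation holds 4 distinct complete coding sequences for Map1lc3b and 2 each for Gabarap and Gabarapl1. Each end is shown 5′ to 3′ from 8 codons before the glycine codon to the stop codon, with the glycine codon in capitals.
Map1lc3a: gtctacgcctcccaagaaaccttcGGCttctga
Map1lc3b: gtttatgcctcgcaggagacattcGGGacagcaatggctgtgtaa
Gabarap: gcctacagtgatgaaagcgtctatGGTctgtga
Gabarapl1: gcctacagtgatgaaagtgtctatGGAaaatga
Gabarapl2: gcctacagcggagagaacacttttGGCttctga
The glycine is codon 120 of the 2 LC3 genes and codon 116 of the 3 GABARAP genes. In Map1lc3b 5 codons follow it, and in each of the other 4 genes 1 codon follows it. This is the stretch that Atg4 removes before coupling. Over the whole coding sequence Map1lc3a and Map1lc3b were identical at 77.5% of aligned bases and Gabarap and Gabarapl1 at 74.9%. The lowest identity, 54.4%, was between Map1lc3a and Gabarapl1.

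Values are FPKM, fragments per kilobase of transcript scaled to the mapped fragments of the library, so levels can be compared between genes. The spacing of the low values corresponds to between 21100000 and 28400000 fragments in each library. Etnppl was at 27.57 to 56.55 FPKM in the WT libraries and at 7.36 to 10.19 FPKM in the KO libraries, so each library matched its label (limma adjusted p = 0.000387, log2 fold change -1.99). Hepatocyte markers were abundant in every library, and 9 of 10 were higher in KO (8 with quantile normalization), with a summed level of 64073 to 75582 FPKM in WT livers and 71383 to 82259 FPKM in KO. Of 8 macrophage markers 7 were lower in KO, 5 with median-of-ratios scaling (229.5 to 321 FPKM summed in WT, 197 to 300.1 FPKM in KO), and of 7 stellate cell and fibroblast markers 5 were lower (149 to 194 and 144 to 161 FPKM), or 4 with median-of-ratios scaling and 3 with quantile normalization. Of the hepatocyte markers 4 were at an unadjusted p under 0.05 in limma, all higher in KO (40%, against 2.69% of all genes tested higher at that p). With median-of-ratios scaling there were 6 and with quantile normalization 5, again all higher. For 2 of the 10 the KO values were wholly above the WT values, against 0.581% of all genes tested. No marker of these 3 lists had an adjusted p under 0.05 in limma. The summed levels of these 3 lists overlapped between the genotypes, as did those of endothelial, bile duct, lymphocyte and erythroid markers. Lower in KO were 4 of 6 endothelial, 3 of 4 bile duct, 3 of 3 lymphocyte and 2 of 3 erythroid markers tested. With median-of-ratios scaling these counts were 2, 2, 3 and 1. Over all genes tested 65.1% were lower, or 50.2% with median-of-ratios scaling. Neutrophil markers summed to 24.1 FPKM in WT replicate 1 and to at most 8.76 FPKM elsewhere. Pancreas acinar markers summed to 89.9 FPKM in KO replicate 3 and to at most 0.75 FPKM in every other library. The 2 muscle markers, Acta1 and Ckm, are listed at 0 throughout. The part of these differences in the values that follow was not tested, and in whole liver a smaller number of cells of a type and less RNA per cell cannot be told apart.

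The autophagy genes covered a wide range of levels, and that range was much larger than any difference between the genotypes. Lamp2, a glycoprotein of the lysosomal membrane, was highest, at 363 ± 28.1 FPKM in WT livers (mean ± SD, n = 5, as for all values below). Sqstm1, a receptor for ubiquitinated cargo, Gabarapl1, Gabarap and the mitochondrial receptor Bnip3 followed at 281 ± 11.7, 268 ± 24.4, 188 ± 10.5 and 151 ± 15 FPKM. The ranges of Sqstm1 and Gabarapl1 overlapped in WT. A second tier lay between 39.7 ± 1.43 FPKM for Becn1 and 66 ± 4.64 FPKM for Nbr1 and held the 2 LC3 genes and the receptors Optn and Tax1bp1. The lowest was Atg10, at 2.66 ± 0.227 FPKM, the enzyme that passes Atg12 to Atg5. By the WT mean, the 10 highest genes were Lamp2, all 5 cargo receptors and 4 of the 5 Atg8 family genes. The kinases, membrane supply genes, coupling enzymes and Atg4 proteases all lay below them, led by Becn1, a subunit of the lipid kinase complex.

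**Figure D1:**
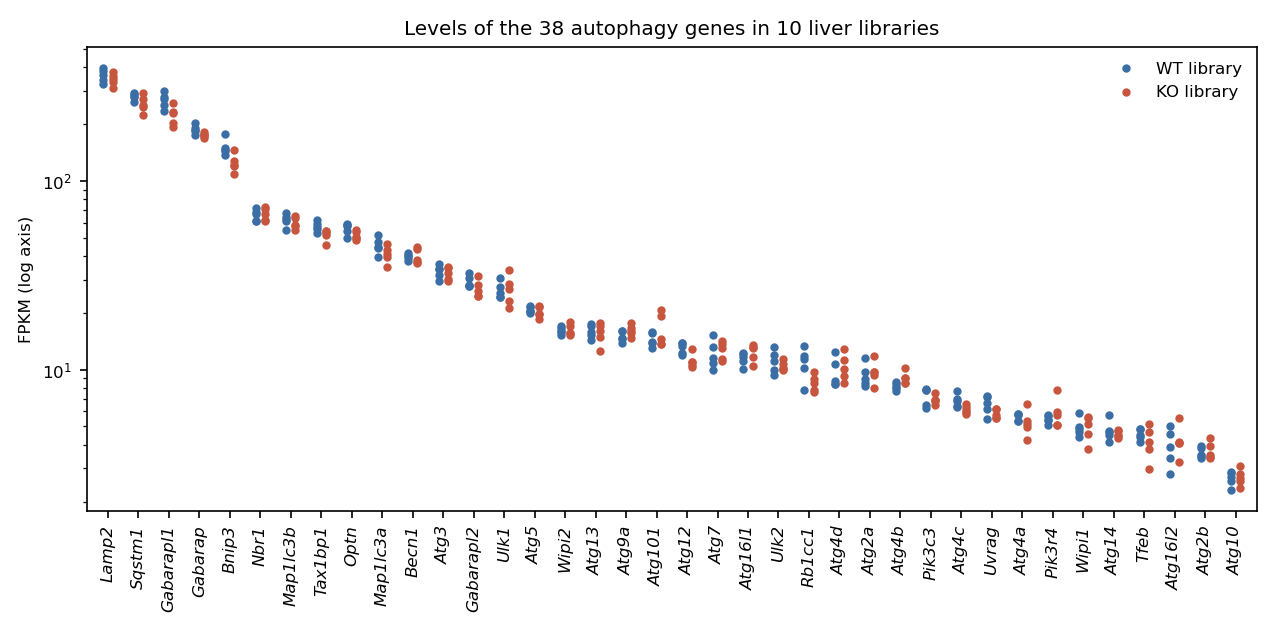
Levels of the 38 autophagy genes in FPKM on a log axis, ordered by the WT mean, with 1 point for each of the 5 WT and 5 KO libraries. Lamp2, Sqstm1, Gabarapl1, Gabarap and Bnip3 stand above the rest, and the points of the 2 genotypes overlap for each gene.

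When KO livers were set against WT livers, 0 of the 38 genes reached the limma threshold of an adjusted p of 0.05, a threshold that 0.0645% of the 12395 genes tested reached. All 38 were above the filter of a mean of 0.5 FPKM. Before adjustment, 4 genes had a p under 0.05, all lower in KO: Bnip3, Gabarapl1, Atg12 and Rb1cc1. These 4 are 10.5% of the 38, against 11.8% of all genes tested (9.07% lower and 2.69% higher in KO), so with all libraries the count is near the background. Without WT replicate 2 there were 7, with Map1lc3a, Optn and Tax1bp1 added, again all lower, which is 18.4% against 11.6% of all genes tested. By the exact two-sided permutation test of single genes, 7 of the 38 had an unadjusted p under 0.05 (18.4%, against 11.7% of all genes tested). These were Atg12, Bnip3, Gabarap, Gabarapl1, Atg4c and Tax1bp1, lower in KO, and Atg4b, higher. Of the 38, 24 (63.2%) were lower in KO, against 65.1% of all genes tested. In 0 of the 38 did the 5 KO values lie wholly to one side of the 5 WT values, a pattern found in 2.79% of all genes tested. The median log2 fold change was -0.05 over the 38 and -0.05 over all genes tested, on the scale of log2(FPKM + 0.5) used throughout. With median-of-ratios scaling, which sets the median of all genes to near 0, 16 of the 38 were lower and 22 higher, and the median was 0.00. KO replicate 1 lay lowest before that scaling, with a median deviation from the WT mean of -0.13 over all genes and -0.10 over the 38, and KO replicate 4 was at -0.05 and -0.10. In that scaling 3 genes were at an unadjusted p under 0.05, Gabarapl1 lower and Atg4b and Atg9a higher, which is 7.89% against 10.2% of all genes tested.

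The spread within a genotype was small enough to bound most differences. The median SD of log2 values within a group was 0.12 over the 38 genes, and 0.15 over the 8715 genes tested with means in the same range. The 95% interval of the difference lay within a 1.5-fold change in either direction for 37 of the 38 genes, all but Rb1cc1, and for 85.9% of all genes tested. It lay within 1.25-fold for 27 of the 38 and for 43.3% of all genes tested. The 11 genes outside that narrower bound were Atg101, Atg12, Atg16l2, Atg4d, Bnip3, Gabarapl1, Map1lc3a, Pik3r4, Rb1cc1, Tfeb and Uvrag. These counts are for FPKM as deposited. They were not made with median-of-ratios scaling, which moved every member up, so the genes within each bound can differ there. The shares over all genes tested include means down to 0.5 FPKM, against 2.68 FPKM for the lowest of the 38.

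**Figure D2:**
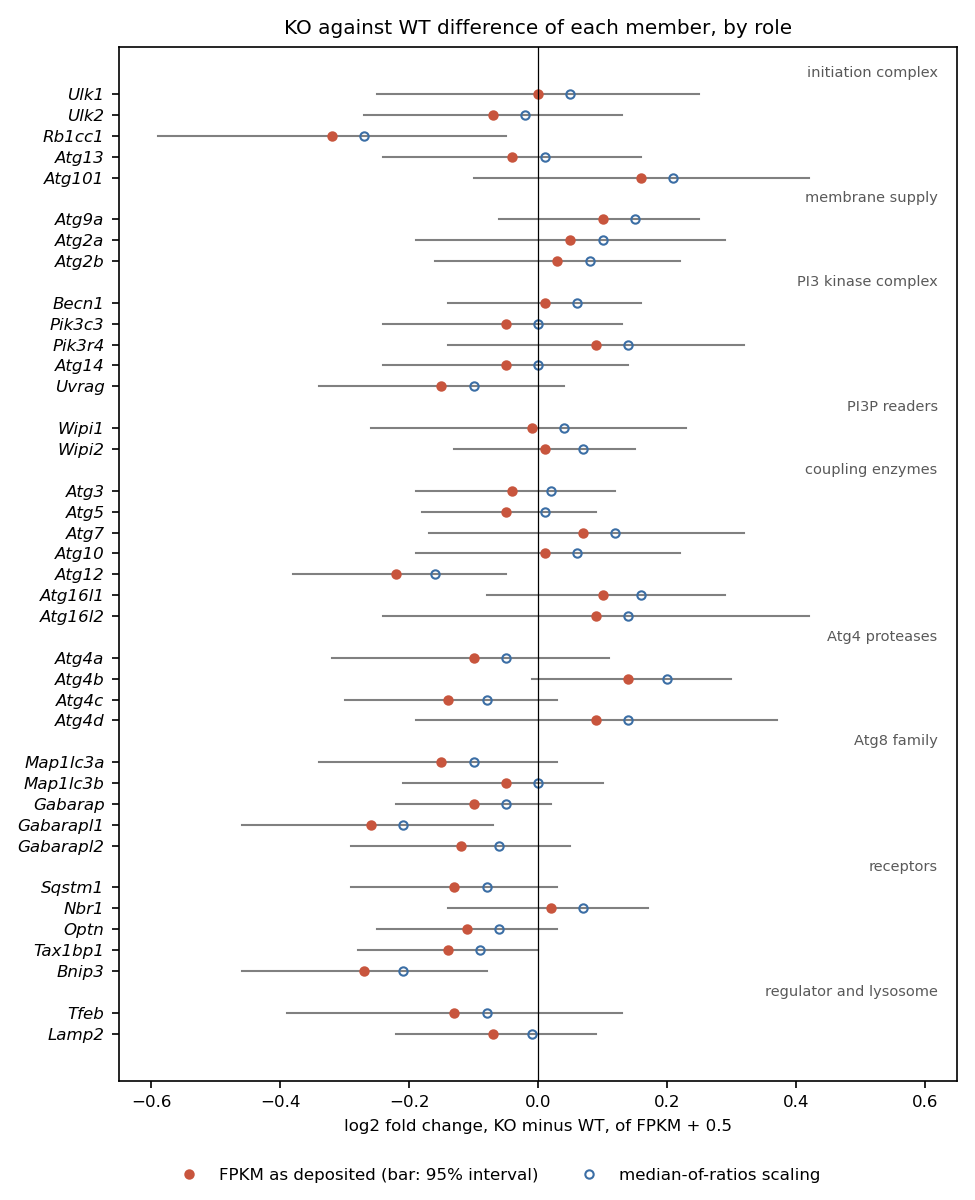
Difference of each of the 38 genes on the log2 scale, KO minus WT, by role. Filled points and bars are the limma estimate and its 95% interval from FPKM as deposited, and open points are the estimate after median-of-ratios scaling, which moved every gene up by a similar amount; Bnip3, Gabarapl1, Atg12 and Rb1cc1 have intervals below 0.

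The Atg8 family was lower in KO for all 5 genes, or for 4 of 5 with median-of-ratios scaling. The log2 fold changes ran from -0.26 to -0.05 (median -0.12), beside a median of -0.05 over all genes, and none passed the test over all genes. Gabarapl1, the most abundant of the family and a member of the GABARAP branch, differed most. Its gene is on the plus strand of chromosome 6, 129533160 to 129542346 (GRCm38). The WT livers were at 253.6, 278.47, 271.49, 299.6 and 235.51 FPKM and the KO livers at 203.55, 260.48, 231.99, 193.25 and 229.13 FPKM. Of the KO libraries 4 of 5 were below the lowest WT library, and KO replicate 2 was inside the WT range. Gabarapl1 was lower in KO by a factor of 1.20 (95% interval 1.05 to 1.37; limma unadjusted p = 0.012, adjusted p = 0.26; exact two-sided permutation p = 0.0317). It was below an unadjusted p of 0.05 in all 21 refits at other settings, with log2 fold changes from -0.32 to -0.21. On the opposite strand 1700101I11Rik shares 570 bases of exon with it and was at 0.076 ± 0.0404 FPKM in WT livers and 0.108 ± 0.0507 FPKM in KO.

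The other 4 family members differed less. Gabarap (chromosome 11, 69991143 to 69994951, plus strand) was at 175.5, 203.92, 190.35, 186.75 and 183.33 FPKM in WT livers and 168.79, 180.92, 175.88, 176.37 and 172.78 FPKM in KO. The KO values lay close together, each below the WT mean, and 3 of the 5 were within the WT range (log2 fold change -0.10, 95% CI -0.22 to 0.02; limma adjusted p = 0.491; exact two-sided permutation p = 0.0317). Map1lc3a (chromosome 2, 155276297 to 155278073, plus strand), the LC3 gene of lower level here, was at 44.9, 39.71, 51.79, 44.28 and 47.71 FPKM in WT livers and 40.87, 43.11, 39.45, 35.18 and 46.57 FPKM in KO. The groups overlapped (log2 fold change -0.15, 95% CI -0.34 to 0.03; limma adjusted p = 0.508).

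Map1lc3b (chromosome 8, 121590361 to 121598760, plus strand), whose product is the usual marker of autophagosomes, was at 61.69, 67.56, 64.69, 62.73 and 54.77 FPKM in WT. In KO it was at 58.71, 63.31, 64.85, 57.75 and 54.98 FPKM, wholly inside the WT range. The log2 fold change was -0.05 (95% CI -0.21 to 0.10; limma adjusted p = 0.799) and became 0.00 with median-of-ratios scaling. Gabarapl2 (chromosome 8, 111940703 to 111953612, plus strand), the least abundant of the family, was at 27.74, 30.58, 27.95, 27.71 and 32.37 FPKM in WT livers and 24.54, 26.11, 31.5, 24.6 and 28.19 FPKM in KO. Of the KO values 3 were below the WT range and 2 inside it (log2 fold change -0.12, limma adjusted p = 0.594).

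Summed over the 5 genes, the family was at 553.7 to 621.1 FPKM in WT livers and 487.2 to 573.9 FPKM in KO. Gabarapl1 made up 45.1 ± 2.04% of that sum in WT and 42.4 ± 2.17% in KO. Gabarap made up 31.7 ± 1.27% and 33.3 ± 1.85%, and Map1lc3b 10.5 ± 0.478% and 11.4 ± 0.693%. The remaining shares were 7.73 ± 0.952% and 7.8 ± 0.675% for Map1lc3a and 4.95 ± 0.538% and 5.13 ± 0.461% for Gabarapl2. The order of the 5 was therefore the same in both genotypes, and in these livers the GABARAP branch outweighed the LC3 branch at the RNA level.

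**Figure D3:**
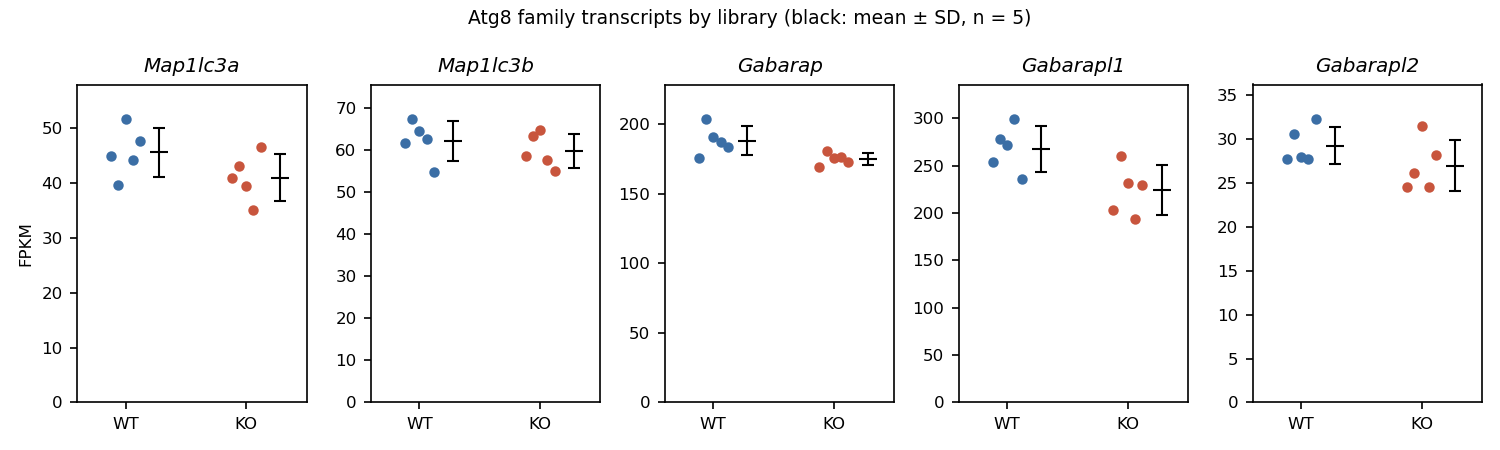
FPKM of the 5 Atg8 family genes in each of the 5 WT and 5 KO libraries, with the mean and SD in black and each axis starting at 0. For Gabarapl1 only KO replicate 2, at 260.48 FPKM, is within the WT range, and for Map1lc3b every KO library is.

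Among the cargo receptors, 4 of 5 were lower in KO and Nbr1 was not, and none passed the test. Bnip3, a receptor in the outer mitochondrial membrane that is induced by low oxygen and fasting, had the lowest p of the 38 genes. Its gene is on the minus strand of chromosome 7, 138890836 to 138909519. WT livers were at 145.41, 137.62, 149.24, 144.18 and 176.42 FPKM and KO livers at 146.61, 109.04, 126.93, 119.56 and 122.24 FPKM. KO replicate 1 was inside the WT range and the other 4 KO libraries were below it. Bnip3 was lower in KO by a factor of 1.21 (95% interval 1.06 to 1.37; limma unadjusted p = 0.0085, adjusted p = 0.233; exact two-sided permutation p = 0.0317). With median-of-ratios scaling its unadjusted p was 0.0605. An antisense model, Gm45507, shares 504 bases of exon with it.

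Sqstm1, which links ubiquitinated cargo to LC3, was at 289.78, 277.44, 292.48, 263.06 and 283.62 FPKM in WT. In KO it was at 222.85, 293.75, 272.63, 253.19 and 246.11 FPKM, with the highest KO library above every WT library and 3 KO libraries below them all (log2 fold change -0.13, 95% CI -0.29 to 0.03; limma adjusted p = 0.51). Tax1bp1 and Optn, both receptors for ubiquitinated cargo, were at 57.3 ± 3.4 and 55.7 ± 3.73 FPKM in WT livers and 51.9 ± 3.56 and 51.5 ± 2.64 FPKM in KO. Every KO library was below the WT mean for both genes, and 2 KO libraries of each were below the WT range (limma adjusted p = 0.429 and 0.513; exact two-sided permutation p = 0.0397 for Tax1bp1). Nbr1, a receptor related in domain structure to Sqstm1, was at 66 ± 4.64 and 66.8 ± 5.17 FPKM (log2 fold change 0.02, 95% CI -0.14 to 0.17).

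The coupling enzymes work as ubiquitin-like cascades. Atg7 activates both Atg12 and the Atg8 proteins, Atg3 hands the Atg8 protein to the lipid, and Atg10 hands Atg12 to Atg5, which with Atg16l1 sets where coupling takes place. Of the 7 genes 3 were lower and 4 higher in KO, or 1 lower and 6 higher with median-of-ratios scaling. Atg12 (minus strand of chromosome 18, 46730144 to 46741580) was at 13.89, 12.2, 13.77, 13.39 and 12.01 FPKM in WT livers and 10.97, 11.02, 12.79, 10.37 and 10.64 FPKM in KO. Every KO library except replicate 3 was below the WT range. Atg12 was 1.16-fold lower (95% CI 1.04 to 1.30; limma unadjusted p = 0.013, adjusted p = 0.266; exact two-sided permutation p = 0.0238), and its unadjusted p was 0.0599 with median-of-ratios scaling.

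The genes that work with it had intervals that included 0. Atg5, which carries Atg12, was at 20.9 ± 0.807 FPKM in WT livers and 20.2 ± 1.37 FPKM in KO (log2 fold change -0.05, 95% CI -0.18 to 0.09). Atg3, the most abundant coupling enzyme, was at 33.1 ± 2.57 and 32.3 ± 2.46 FPKM, and Atg7 at 12.1 ± 2.11 and 12.7 ± 1.38 FPKM. Atg16l1 was at 11.5 ± 0.881 and 12.4 ± 1.27 FPKM, its relative Atg16l2 at 3.94 ± 0.89 and 4.21 ± 0.829 FPKM and Atg10 at 2.66 ± 0.227 and 2.69 ± 0.26 FPKM. For these 6 genes the limma adjusted p was 0.678 or higher. The difference between Atg12 and its partners was not tested.

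Of the 4 Atg4 proteases, which trim the Atg8 proteins before coupling and free them from the lipid afterwards, 2 were lower and 2 higher in KO. Atg4b, regarded as the main LC3 protease, was at 8.55, 8.01, 8.35, 8.06 and 7.7 FPKM in WT livers and 10.24, 9.01, 8.5, 9 and 8.5 FPKM in KO. Every KO library was above the WT mean and 3 were above the WT range (log2 fold change 0.14, 95% CI -0.01 to 0.30; limma unadjusted p = 0.0661, adjusted p = 0.451; exact two-sided permutation p = 0.0238). With median-of-ratios scaling the log2 fold change was 0.20 at an unadjusted p of 0.0374 and an adjusted p of 0.452. Atg4c was at 6.84 ± 0.548 FPKM in WT livers and 6.17 ± 0.304 FPKM in KO, Atg4a was at 5.61 ± 0.234 and 5.25 ± 0.843 FPKM, and Atg4d at 9.72 ± 1.81 and 10.4 ± 1.74 FPKM (limma adjusted p = 0.499, 0.734 and 0.826; exact two-sided permutation p = 0.0397 for Atg4c). The pseudogene Atg4a-ps was at 0.05 FPKM or less in every library. Kri1, on the opposite strand, shares 1405 bases of exon with Atg4d. It was at 6.67 ± 1.59 FPKM in WT livers and 6.09 ± 0.967 FPKM in KO. Its part in the Atg4d values was not tested.

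**Figure D4:**
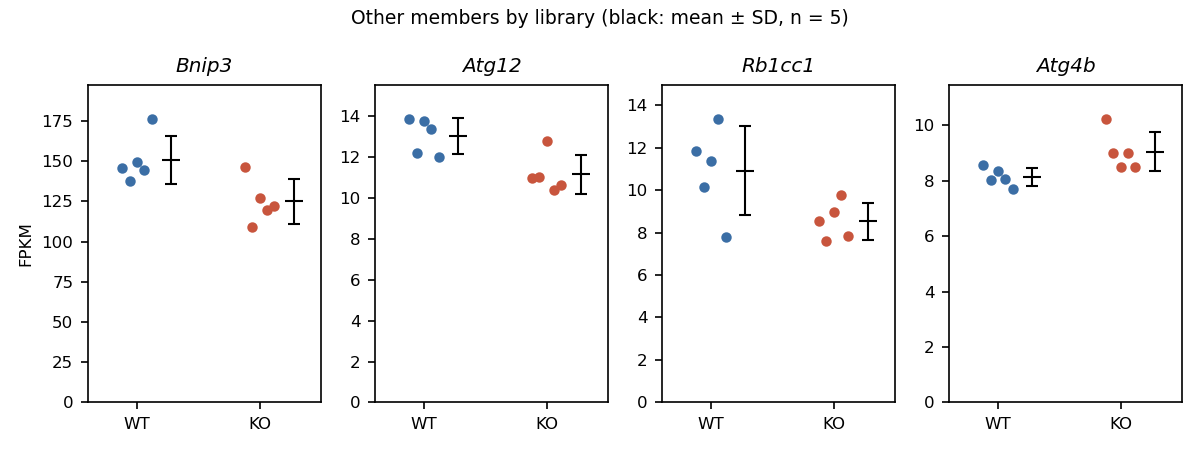
FPKM of Bnip3, Atg12, Rb1cc1 and Atg4b in each library, with the mean and SD of 5 libraries in black and each axis starting at 0. The KO mean is lower for Bnip3, Atg12 and Rb1cc1 and higher for Atg4b, and the ranges of the 2 genotypes overlap in all 4.

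In the initiation complex, the scaffold gene Rb1cc1 had the largest difference of the 38 genes and also a wide spread in WT. Its gene is on the plus strand of chromosome 1, 6206197 to 6276648. WT livers were at 11.86, 10.14, 11.38, 13.37 and 7.77 FPKM and KO livers at 8.53, 7.58, 8.95, 9.75 and 7.83 FPKM. WT replicate 5 lay among the KO values, and the other 4 WT libraries were above every KO library. Rb1cc1 was lower in KO by a factor of 1.25 (95% interval 1.03 to 1.51; limma unadjusted p = 0.0243, adjusted p = 0.324; exact two-sided permutation p = 0.0556). Its unadjusted p ran from 0.001 to 0.0683 over the 21 refits and was above 0.05 with median-of-ratios scaling, with quantile normalization, without WT replicate 1, 3 or 4 and without KO replicate 2 or 5. An antisense gene, 4732440D04Rik, shares 558 bases of exon with it and was at 0.428 FPKM in both genotypes.

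Intervals for the other genes of that complex included 0. Ulk1, the main initiating kinase, was at 26.4 ± 2.67 FPKM in WT livers and 26.6 ± 4.85 FPKM in KO (95% CI of the log2 fold change -0.25 to 0.25), and its relative Ulk2 at 11.1 ± 1.57 and 10.5 ± 0.6 FPKM. The regulatory subunit Atg13 was at 16 ± 1.31 and 15.6 ± 2.01 FPKM and Atg101, which stabilises it, at 14.4 ± 1.24 and 16.4 ± 3.37 FPKM. KO replicates 2 and 5, at 19.23 and 20.8 FPKM, were above the Atg101 values of all other libraries. None of these 4 had a limma adjusted p below 0.649.

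The 3 membrane supply genes were higher in KO by small amounts, also with median-of-ratios scaling, and none passed the test. Without KO replicate 4, Atg2a and Atg2b were at -0.02 each on the log2 scale. Atg9a, a membrane protein of the vesicles that seed the phagophore, was at 13.85, 14.69, 14.51, 16.1 and 16 FPKM in WT livers and 14.68, 17.64, 16.53, 16.04 and 15.6 FPKM in KO. The groups overlapped, with 2 KO libraries above the WT range (log2 fold change 0.10, 95% CI -0.06 to 0.25; limma adjusted p = 0.632). With median-of-ratios scaling it was 0.15 at an unadjusted p of 0.041. The lipid transfer proteins Atg2a and Atg2b were at 9.37 ± 1.36 and 3.64 ± 0.241 FPKM in WT livers and 9.71 ± 1.35 and 3.74 ± 0.398 FPKM in KO. Gm29253 on the same strand shares 1832 bases of exon with Atg9a and was at 0.34 ± 0.0967 FPKM in WT.

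In the lipid kinase complex 3 of 5 genes were lower in KO, or 1 with median-of-ratios scaling, and none passed the test. Becn1, its regulatory scaffold, was at 39.7 ± 1.43 FPKM in WT livers and 40.1 ± 3.84 FPKM in KO (log2 fold change 0.01, 95% CI -0.14 to 0.16). The catalytic subunit Pik3c3 was at 7.25 ± 0.813 and 6.94 ± 0.359 FPKM, and Pik3r4, which anchors it, at 5.46 ± 0.262 and 5.92 ± 1.1 FPKM. Atg14, which directs the complex to the phagophore, was at 4.76 ± 0.602 and 4.56 ± 0.179 FPKM. Uvrag, which takes its place in the endosomal form of the complex, had the lowest p of the 5. It was at 6.2, 6.68, 7.25, 7.13 and 5.49 FPKM in WT livers and 5.56, 5.73, 5.55, 6.16 and 6.16 FPKM in KO, all within the WT range (log2 fold change -0.15, limma adjusted p = 0.519). Wipi2 and Wipi1, which read the lipid mark, were at 16.1 ± 0.712 and 4.95 ± 0.577 FPKM in WT livers and 16.3 ± 1.08 and 4.92 ± 0.747 FPKM in KO. For Wipi2 the values were 16.64, 15.89, 15.95, 17.01 and 15.18 FPKM in WT livers and 15.67, 15.69, 17.8, 17.08 and 15.27 FPKM in KO, and the 95% interval of the difference ran from -0.13 to 0.15 on the log2 scale.

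Tfeb, a transcription factor that induces autophagy and lysosome genes, was at 4.4, 4.16, 4.84, 4.48 and 4.84 FPKM in WT livers and 2.99, 4.7, 4.15, 3.79 and 5.15 FPKM in KO. Its KO values were more spread, with 3 below and 1 above the WT range (log2 fold change -0.13, 95% CI -0.39 to 0.13; limma adjusted p = 0.711). Lamp2 was at 363 ± 28.1 FPKM in WT livers and 346 ± 25.4 FPKM in KO (log2 fold change -0.07, 95% CI -0.22 to 0.09). Tfeb binds sites built on the hexamer CACGTG, which reads the same on both strands. RefSeq windows of 300 bases, 250 before and 50 after a listed start, were searched. A gene was counted if any of its windows held this hexamer. These were 5 of the 32 members with a window (15.6%: Atg3, Atg5, Atg7, Atg14 and Bnip3) and 8.09% of 27025 genes with a window, expressed here or not. The Atg7 match, at chr6:114670954-114670979, lies inside the gene, whose GENCODE M21 start is 114643097. The matches of Atg3, the gene with 2 of them, and of Bnip3, the gene of lowest p, are shown with the hexamer in capitals, 5′ to 3′ on the gene's strand. The Atg3 windows are on the plus strand at chr16:45158725-45158750 and chr16:45158748-45158773, and the Bnip3 window is on the minus strand at chr7:138909599-138909624 (GRCm38.p6).
Atg3, first match: ctccttttgtCACGTGtcctgggaga
Atg3, second match: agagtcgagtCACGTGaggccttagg
Bnip3: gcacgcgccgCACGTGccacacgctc
A match is a description of the letters and not a measured site. Of the 5 genes, 4 had unadjusted p-values of 0.47 or higher, and Bnip3 had the value given above.

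Other genes of the pathway were taken from 6 lists, and 0 of the 108 tested had a limma adjusted p under 0.05. Before adjustment 18 had a p under 0.05, 16 lower and 2 higher in KO, which is 16.7% against 11.8% of all genes tested. With median-of-ratios scaling there were 11, 7 of them lower, which is 10.2% of the 108 and 10.2% of all genes tested. The median log2 fold change was -0.05, as over all genes tested, and 77 were lower, or 54 with median-of-ratios scaling. In 5 of the 108 the KO values were wholly below the WT values and in 0 wholly above, against 2.21% and 0.581% of all genes tested.

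Among upstream control genes, 17 of 24 were lower in KO, or 14 with median-of-ratios scaling (median log2 fold change -0.10 and -0.06), and 6 were at an unadjusted p under 0.05, all lower (25%, against 9.07% of all genes tested lower at that p). With median-of-ratios scaling there were 4, 3 of them lower (16.7%, against 10.2% of all genes tested in either direction). Rheb, the small GTPase that activates the mTORC1 kinase on the lysosome, was at 21.6 ± 2.59 FPKM in WT livers and 17.1 ± 1.27 FPKM in KO without overlap (limma adjusted p = 0.178). Flcn and Rragc, which act with mTORC1 at the lysosome surface, were at 10.6 ± 0.745 and 21.2 ± 1 FPKM in WT livers and 8.44 ± 0.978 and 18.4 ± 1.31 FPKM in KO (limma adjusted p = 0.199 and 0.24). Of 13 other phagophore factors 7 were lower and 6 higher, or 3 and 10 with median-of-ratios scaling. Sh3glb1, which binds the Becn1 complex and curves membranes, was at 26.1 ± 0.775 FPKM in WT livers and 22.2 ± 1.26 FPKM in KO without overlap (limma adjusted p = 0.148). Ambra1, a regulator of Becn1, was at 5.12 ± 0.442 and 6.38 ± 1.31 FPKM with overlap.

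Of 18 other receptors 14 were lower and 4 higher, or 10 and 8 with median-of-ratios scaling. The endoplasmic reticulum receptor Sec62 was at 42.6 ± 1.72 FPKM in WT livers and 37.4 ± 1.41 FPKM in KO without overlap (limma adjusted p = 0.2). Of 14 genes for fusion with the lysosome 10 were lower, or 5 with median-of-ratios scaling. The one of lowest p was the fusion protein Snap29, at 9.54 ± 0.287 and 8.16 ± 0.924 FPKM (limma adjusted p = 0.292). Of 29 lysosomal genes 23 were lower (79.3%, median log2 fold change -0.07), or 19 with median-of-ratios scaling (median -0.01). The phosphatidylethanolamine supply list holds enzymes of the donor lipid and of related steps, such as Pemt, Ptdss1 and Phykpl. Selenoi, also listed, had no matching symbol, and the counts do not measure supply of the lipid. This list had 4 of 10 higher and 6 lower, or 7 and 3 with median-of-ratios scaling. Its gene of lowest p was Etnk1, an ethanolamine kinase, at 11.04 to 13.47 FPKM in WT livers and 8.03 to 10.16 FPKM in KO (limma adjusted p = 0.118). Etnk2, the other ethanolamine kinase and the more abundant one, was higher in KO, at 131.68 to 194.68 FPKM in WT livers and 139.55 to 242.29 FPKM in KO with overlap (log2 fold change 0.36, limma unadjusted p = 0.0323, adjusted p = 0.365).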

How the data were processed

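The deposited table lists FPKM for every gene in 10 libraries (5 KO, 5 WT), to 2 decimals as the authors rounded them, and 2 unnamed empty columns were left out. The tools RSEM, STAR, DESeq, DESeq2 and R 4.0.2 and the build mm10 are named, without roles, per the submitters' processing notes. The sources used here do not give the annotation release, read filters or strand handling. FPKM divides by the total of a library, so a few abundant transcripts can move all others.

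The test was limma 3.58.1 in R 4.3.3 on log2(FPKM + 0.5), two-sided, with a trended and robust prior, over 12395 genes whose mean reached 0.5 FPKM, adjusted by Benjamini-Hochberg over all of them. Intervals are 95%. Exact permutation tests of single genes took all 252 assignments of 5 libraries to KO, which cannot give a p below 0.00794. They are unadjusted, and are given for members, with the share over all genes tested. The fit was checked on simulated data with known changes, all of them larger than the differences estimated for the members. Its power to call differences as small as theirs was not tested. For the depth, fragment number and length were fitted so that low values of genes with 1 transcript of 350 to 1000 bases became whole fragments (94.7% to 97.2% were within 0.1).

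Members and lists were chosen with earlier results of these data known. Values in every library are given for the Atg8 family, for members with an unadjusted p under 0.05 and for the member of lowest p in each role. Sqstm1 and single values of Atg101 were added after being seen. Up to 3 genes of lowest p are named per pathway list, and 1 that the rule would name is not reported here. Of 114 listed pathway genes 5 had no matching symbol and 1 fell under the filter. Coordinates are from GENCODE M21 (GRCm38). Biopython 1.88 made the alignments and matplotlib 3.10.9 the plots.

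Alternative settings were a pseudocount of 0.1 or 1, a filter of 2 FPKM or none, 4 other scalings (median-of-ratios, TPM, quantile, and without the 50 most abundant genes), a plain prior, array weights, a replicate block, an adjusted p of 0.1 and each library left out in turn.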

Additional observations from a re-analysis of the deposited data

Results flagged for a closer look

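Of the 76 groups of 5 libraries that the 38 genes give, 1 held a library far from the others. Atg12 was at 12.79 FPKM in KO replicate 3, against 10.37 to 11.02 FPKM in the other 4 KO libraries. KO replicate 3 is also the library in which pancreas acinar markers summed to 89.9 FPKM, and the part of that in the Atg12 value was not tested. Chance alone flags about 1 in 20 groups. Without KO replicate 3 the log2 fold change of Atg12 was -0.27.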

How the results depend on the processing

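At 21 other settings of the fit, and at an adjusted p of 0.1, 0 of the 38 genes were called, and the lowest adjusted p at any setting was 0.167 (Bnip3, array weights). The number with an unadjusted p under 0.05 was 3 to 7 when libraries were left out in turn, with 7 without WT replicate 2, and 3 to 5 otherwise. Gabarapl1 was among them at all 21 settings, Bnip3 and Atg12 at 20 and Rb1cc1 at 14. The median log2 fold change of the 38 went from -0.05 to 0.00 with median-of-ratios scaling and 0.00 with quantile normalization, and lay between -0.06 and -0.03 with libraries left out.

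For 22 of the 38 genes the direction was the same at all 21 settings, and for 16 genes of small difference it was not. With median-of-ratios scaling the log2 fold change turned to 0.01 for Atg13 and Atg5, 0.00 for Atg14, Map1lc3b and Pik3c3, 0.02 for Atg3, 0.05 for Ulk1 and 0.04 for Wipi1. With quantile normalization it turned to 0.01 for Atg13 and Atg14, 0.00 for Atg3 and Pik3c3 and 0.04 for Ulk1 and Wipi1. Ulk1 was also at 0.01 with TPM rescaling, at 0.02 without the 50 most abundant genes (Wipi1 0.00) and at 0.06 with array weights (Becn1 -0.01). The cause of these shifts was not tested. With libraries left out in turn, the ranges that crossed 0 were -0.03 to 0.05 for Atg10, -0.09 to 0.03 for Atg13, -0.09 to 0.02 for Atg14, -0.01 to 0.18 for Atg16l2, -0.02 to 0.12 for Atg2a and -0.02 to 0.06 for Atg2b. They were -0.04 to 0.04 for Becn1, -0.02 to 0.05 for Nbr1, -0.00 to 0.14 for Pik3r4, -0.09 to 0.08 for Ulk1, -0.06 to 0.07 for Wipi1 and -0.02 to 0.04 for Wipi2.

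Whether replicate numbers pair the samples was not tested. The correlation of deviations between same-numbered libraries ran from -0.025 to 0.204, and 2 of 5 WT libraries (1 and 5) matched their own number best. With the replicate block 0 members were called and 5 had an unadjusted p under 0.05 in limma, Tax1bp1 being the added one. The limma unadjusted p of Rb1cc1 went from 0.0243 to 0.0059 with the block (adjusted p = 0.226). How far depth limits single genes was not tested.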
